A study of Mus musculus with 9 samples.

Results

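The mitochondrial ribosomal protein genes were followed as a family of 76 genes in mouse embryonic stem cells that were kept with leukemia inhibitory factor (LIF), deprived of it, or deprived of it and given a nitric oxide donor. A gene belonged to the family when a probe set carried exactly 1 gene symbol beginning with Mrpl or Mrps and a number. The probe set with the highest mean signal over the 9 arrays stood for its gene. This gave 76 of the 18193 genes with such a probe set, and all 76 were among the 13358 genes bright enough to be tested. The 76 genes had 156 probe sets in all, 34 genes having 1 and 42 several.

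The cells were D3-pOct4 mouse embryonic stem cells, all grown in serum-containing medium for 7 days on 3 regimes with 3 arrays each. The first regime held 1000 U/ml LIF, the cytokine that keeps mouse embryonic stem cells self-renewing through STAT3. The second lacked LIF, and the third lacked LIF and held 2 µM of the nitric oxide adduct of diethylenetriamine (DETA/NO), whose slow decay frees nitric oxide; it is called the donor below. Replicates 1, 2 and 3 of each regime came from passages 31, 33 and 34 of the same line. All groups therefore share 1 cell line, and no culture received the donor together with LIF. The sources do not say whether a passage was split into the 3 regimes, so p-values measure only the spread between these arrays, which number 3 per group.

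Mitochondria carry their own ribosome, which makes the few proteins encoded by mitochondrial DNA, all of them subunits of the oxidative phosphorylation complexes. Its RNAs are mitochondrial, while every protein of it is encoded in the nucleus, made in the cytosol and imported. Some of these proteins descend from those of bacterial ribosomes and others were added during the evolution of mitochondria. Embryonic stem cells have immature mitochondria and lean on glycolysis, and mitochondrial content changes as they differentiate. Of the 76 genes, 49 encode proteins of the large subunit, 26 of the small subunit, and 47 have a bacterial homolog against 28 without one. The symbols mislead in 3 cases. Mrps30 and Mrps18a encode large subunit proteins, and Mrps36 encodes a subunit of the 2-oxoglutarate dehydrogenase complex and was counted in neither subunit.

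Several arrays stood apart, and this bears on every result. Socs3, the feedback inhibitor that LIF induces through STAT3, went against the label on the replicate 2 arrays: its signal with LIF was 3213, 282 and 1794 in replicates 1 to 3, and without LIF it was 102, 3054 and 329.8. Those 2 arrays are therefore called by their labels only. Replicate 1 without LIF and replicate 3 with the donor were the most alike of all pairs of arrays although they differ in regime and passage (r = 0.977 over the tested probe sets). On 3 arrays, replicate 1 with LIF and replicates 1 and 2 with the donor, the median signal exceeded 20 (23.3, 22.4 and 20.8), against 13.9 to 17.8 on the other 6, while the 2% trimmed mean was 100.0 on each. Summed signals of 8 embryonic stem cell markers ranged from 12783 to 27913, and those of 8 feeder fibroblast markers from 100.2 to 444. Among the feeder markers Acta2 ran from 25.1 to 302, while Col1a1 stayed at 2.73 to 25.5. Summed trophoblast markers ranged from 637 to 7634, and Krt8 made up most of that sum on every array (397 to 6535). Elf5, of the same list, stayed at 0.518 to 7.76. Summed primitive and parietal endoderm markers ranged from 1310.3 to 7602, highest on replicate 3 with LIF. A signal here is the array's linear brightness for 1 probe set, so signals are compared between arrays and not between genes. In such bulk RNA, fewer cells of a type and less RNA per cell cannot be told apart.

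Short motifs of 3 kinds were looked for in the promoters of the family, and 5 promoters are shown because they hold the motifs searched upstream of the start site and belong to genes whose signals are given below. Of the 76 genes, 67 had a promoter entry in RefSeq (build GRCm38.p6), a window from 250 bases before to 50 after the start of transcription. The motifs were GCGCATGCG, a core of the site of nuclear respiratory factor 1, CCGGAAG, a core of the site of ETS factors such as GABPA, and AAGATGGC, a core of the site of YY1, each on either strand. GCGCATGCG is nearly a palindrome, so that a match on 1 strand can overlap 1 on the other, as in Mrpl32 and Mrpl39. Each line gives the 250 bases before the start site, 5′ to 3′ on the gene's strand, with the motif matches in capitals.
Mrpl17, chr7:105811088-105811337, minus strand: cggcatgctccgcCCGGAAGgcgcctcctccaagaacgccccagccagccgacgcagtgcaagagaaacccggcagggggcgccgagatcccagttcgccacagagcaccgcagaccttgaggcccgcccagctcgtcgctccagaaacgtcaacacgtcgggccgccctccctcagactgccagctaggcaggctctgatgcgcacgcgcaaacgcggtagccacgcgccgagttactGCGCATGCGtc
Mrpl32, chr13:14613038-14613287, minus strand: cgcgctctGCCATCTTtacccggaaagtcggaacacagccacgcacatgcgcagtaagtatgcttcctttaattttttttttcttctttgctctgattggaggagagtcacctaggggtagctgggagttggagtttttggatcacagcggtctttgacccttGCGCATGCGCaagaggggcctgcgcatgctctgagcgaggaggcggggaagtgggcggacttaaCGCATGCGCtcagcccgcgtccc
Mrpl39, chr16:84735245-84735494, minus strand: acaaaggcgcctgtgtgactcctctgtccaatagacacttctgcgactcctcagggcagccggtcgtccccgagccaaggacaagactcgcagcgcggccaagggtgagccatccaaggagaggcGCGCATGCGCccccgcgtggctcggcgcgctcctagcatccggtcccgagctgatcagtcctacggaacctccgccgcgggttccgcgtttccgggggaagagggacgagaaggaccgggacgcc
Mrps18a, chr17:46110754-46111003, plus strand: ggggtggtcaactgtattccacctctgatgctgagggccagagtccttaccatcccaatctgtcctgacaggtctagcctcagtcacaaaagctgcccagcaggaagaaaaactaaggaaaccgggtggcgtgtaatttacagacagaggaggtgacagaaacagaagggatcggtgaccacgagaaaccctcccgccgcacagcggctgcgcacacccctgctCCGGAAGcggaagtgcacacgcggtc
Mrps18c, chr5:100798509-100798758, plus strand: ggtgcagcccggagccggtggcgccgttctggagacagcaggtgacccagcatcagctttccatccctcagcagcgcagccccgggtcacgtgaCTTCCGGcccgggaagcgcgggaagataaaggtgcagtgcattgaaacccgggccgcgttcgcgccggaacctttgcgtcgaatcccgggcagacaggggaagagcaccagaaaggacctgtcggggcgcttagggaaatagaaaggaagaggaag

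Mrpl17 encodes a large subunit protein near the exit of the peptide tunnel, Mrpl32 a large subunit protein that is cut by the m-AAA protease before assembly, and Mrpl39 a metazoan addition to the large subunit. Mrps18a and Mrps18c are 2 of the 3 relatives of bacterial S18. GCGCATGCG was found in 7 of the 67 promoters (10.4%), against 1.95% of the 27025 genes with an entry and 5.02% of the 2967 such genes among the tested genes of similar brightness. CCGGAAG was found in 25 (37.3%), against 9.93% and 24.8%. AAGATGGC was found in 12 (17.9%), against 3.19% and 6.71%. In 8 of those 12 genes the AAGATGGC match lay after the start site, within 37 bases, whereas the GCGCATGCG matches lay before it in all 7. At least 1 of the motifs was present in 37 promoters (55.2%), against 14.1% and 33.4%. Genes with and without a match had like median differences: in the comparison without LIF against with LIF the median log2 difference was 0.30 in the 37 genes with a match and 0.38 in the 30 without. In the comparison with donor against without it was −0.37 and −0.38. A match describes letters in a window and was not tested as a binding site.

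The family moved as a block from array to array, more than it followed the regimes. The median signal of the 76 genes was 262, 429 and 412 in replicates 1 to 3 with LIF, 531, 452 and 387 without LIF, and 224, 364 and 521 with the donor. Replicate 1 was thus the lowest array with LIF and with the donor, and the highest without LIF, and the groups overlapped. On replicate 1 with the donor, 75 of the 76 genes lay below their own mean over the 9 arrays, and on replicate 1 with LIF 71 did. On replicate 3 with the donor 9 did and on replicate 1 without LIF 13. The 3598 other tested genes of similar brightness (those between the 10th and 90th percentile of the family, a mean signal of about 172 to 785) moved less as a set. The family's mean on the log2 scale minus theirs was −0.11, 0.20 and 0.31 with LIF, 0.68, 0.35 and 0.23 without LIF, and −0.34, 0.07 and 0.64 with the donor.

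**Figure D1:**
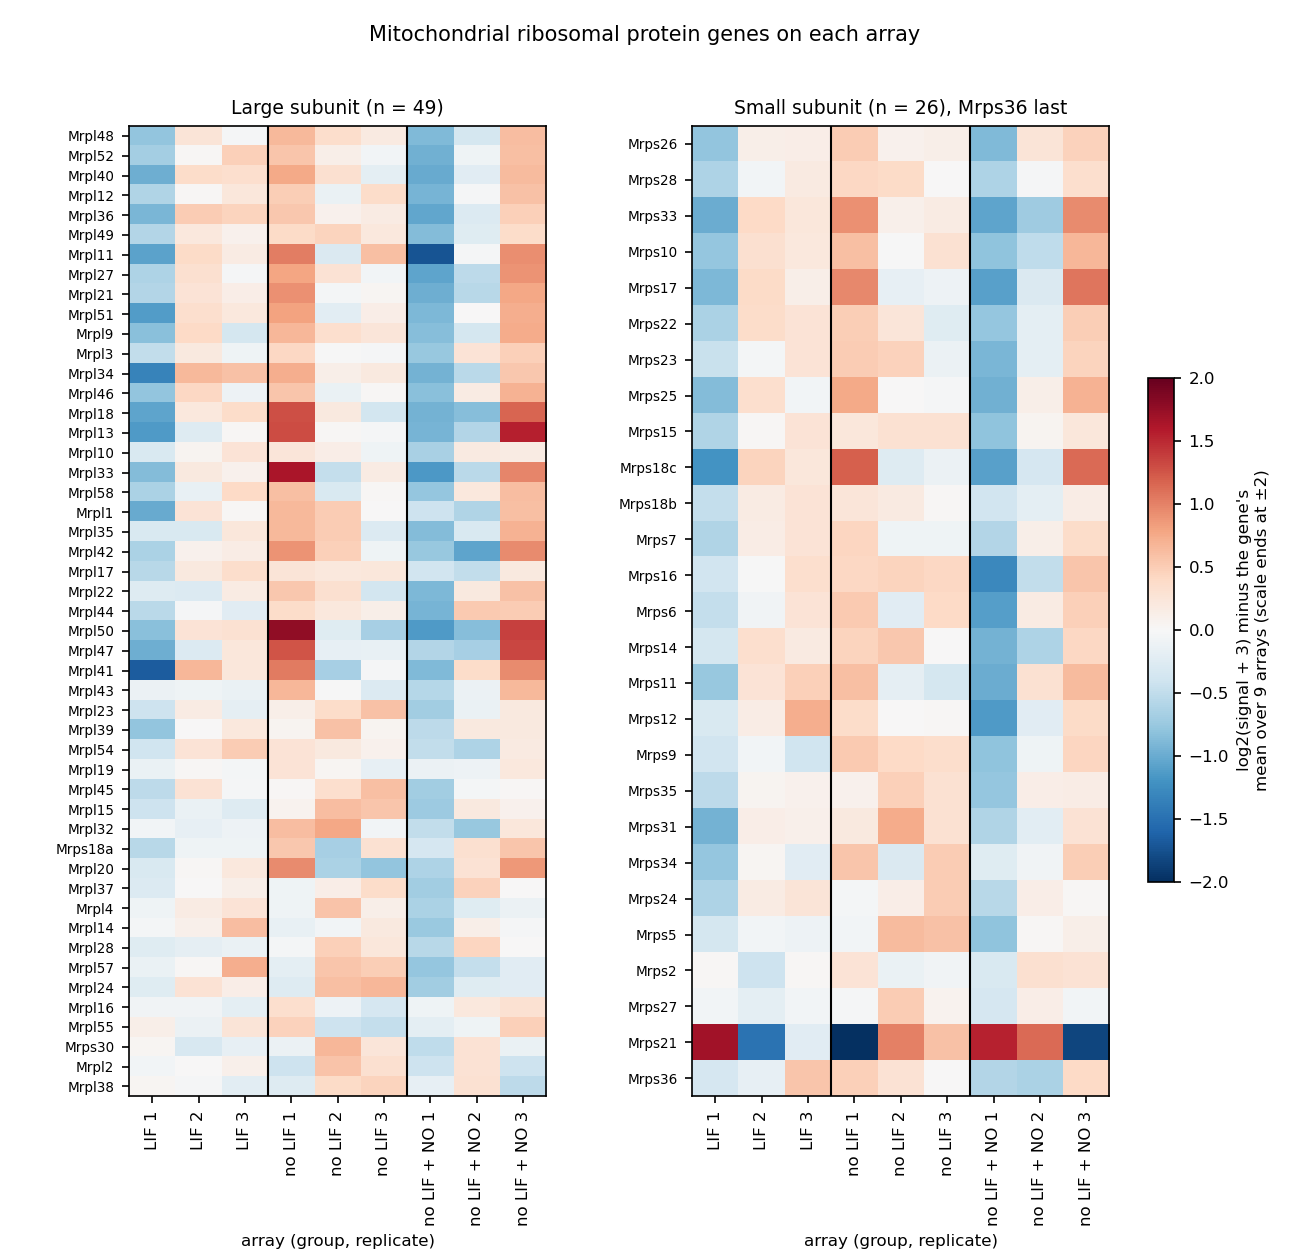
Log2(signal + 3) of each of the 76 genes minus its mean over the 9 arrays (colour, from −2 in blue to 2 in red), one row per gene and one column per array. Large subunit genes are on the left and small subunit genes on the right, ordered from top to bottom by their correlation with the mean of the other 75 genes, with Mrps36 in the last row. Most rows are blue on replicate 1 with LIF and on replicate 1 with the donor, and red on replicate 1 without LIF and replicate 3 with the donor; Mrps21 runs the other way.

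Over the 9 arrays the median correlation between 2 genes of the family was 0.67, against 0.07 between 2 of the other genes of similar brightness, 0.59 between nuclear oxidative phosphorylation subunits and 0.63 between cytosolic ribosomal proteins. These points share arrays, scaling and hybridization quality, and the correlations are descriptions. The spread of single genes was alike, with a median SD over the arrays of 0.49 on the log2 scale in the family and 0.50 in the genes of similar brightness. The median correlation was also 0.67 without the 2 arrays that were most alike. Among the 6 arrays with a median signal under 20 it was 0.30, against 0.01 in the genes of similar brightness and 0.10 in the oxidative phosphorylation subunits, and below the 0.66 of the cytosolic ribosomal proteins. A single gene's correlation with the mean of the other 75 had a median of 0.85 and exceeded 0.8 in 47 genes. Whether the higher median signal of 3 arrays has a part in the common movement was not tested. These 3, called the brighter arrays by that median only, were the 3 lowest arrays in 29 of the 76 genes (38.2%). The same held for 15.3% of the genes of similar brightness, 56.4% of the oxidative phosphorylation subunits and 47.6% of the cytosolic ribosomal proteins.

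**Figure D2:**
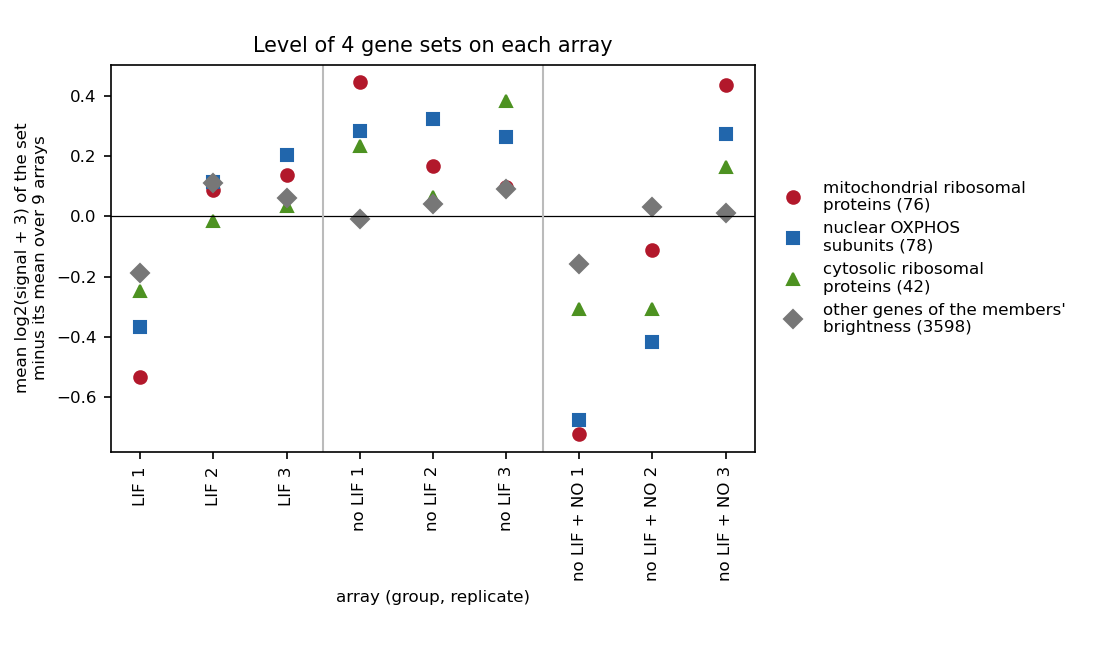
Mean log2(signal + 3) of 4 gene sets on each array, minus that set's mean over the 9 arrays; the number of genes is in brackets and each point is 1 array. The mitochondrial ribosomal genes (circles) are lowest on replicate 1 with the donor and on replicate 1 with LIF, and highest on replicate 1 without LIF and replicate 3 with the donor.

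The first comparison asked what withdrawal of LIF for 7 days did to the family. Its genes tended to have higher signals without LIF, by a median of 0.37 on the log2 scale (range −0.27 to 0.90), and none passed the test. Higher means were seen in 71 of the 76 genes (93.4%), against 50.4% of all tested genes and 58.8% of the genes of similar brightness, whose median difference was 0.10. With limma's moderated test and Benjamini-Hochberg adjustment, 0 of the 29811 probe sets tested were called at 0.05 (0%), and the smallest adjusted p in the family was 0.973. At an unadjusted p under 0.05 there were 459 probe sets and 0 members, against 1.11% of the tested genes. The higher median came from passage 31, where it was 0.95 with 69 genes higher. It was 0.03 at passage 33 and −0.07 at passage 34, and in the genes of similar brightness the medians were 0.29, −0.05 and 0.03. Without replicate 1 with LIF the median was 0.11, without replicate 1 without LIF 0.22, and with the brighter arrays as a block 0.09 (29 genes lower). No array without LIF is among the brighter arrays, so that block cannot be fully separated from the regime. The median was 0.44 without the replicate 2 arrays on which Socs3 went against the label.

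In 8 genes the 3 arrays without LIF were all above the 3 with LIF (10.5%, against 3.64% of all tested genes in that direction), and 0 genes showed the reverse. The share in that direction was 4.22% in the genes of similar brightness, 16.7% in the oxidative phosphorylation subunits and 11.9% in the cytosolic ribosomal proteins. It is thus not particular to the family. The 8 genes were Mrpl15, Mrpl28, Mrpl44, Mrps5, Mrps9, Mrps16, Mrps27 and Mrps31. Mrpl15, a large subunit protein with a bacterial homolog, had signals of 1123, 1367 and 1259.8 with LIF, 1583, 2296 and 2221 without LIF and 909.7, 1732 and 1607 with the donor. It was the gene with the smallest p, with a log2 difference of 0.69 ± 0.32 (SE; adjusted p = 0.973 by limma). Its 3 other bright probe sets (mean signals 896 to 1509) also had higher means without LIF, by 0.32, 0.68 and 0.58, while 2 dimmer ones (mean signals 89.6 and 119.9) gave −0.60 and −0.46. In the probe set that gave 0.32 the groups overlapped. Mrps9, a small subunit protein at the head of the subunit, had signals of 189, 239 and 186 with LIF and 357, 326 and 316 without, a difference of 0.70 ± 0.37 (adjusted p = 0.973 by limma). Of its 3 other probe sets, those with mean signals of 125 and 71.7 gave 0.70 and 0.27, and 1 with a mean signal of 68.5 gave −1.08. Mrps5, a small subunit protein near the messenger RNA entrance, had 239, 293 and 284 with LIF and 294, 476 and 459.9 without. The 2 groups of Mrps5 did not overlap, but replicate 1 without LIF exceeded replicate 2 with LIF by only 1 unit of signal. The brightest of the other Mrps5 probe sets (mean signal 138) gave 0.17, and its groups overlapped. Dimmer ones with mean signals of 51.8, 20.5 and 15.1 gave 0.28, 0.13 and 1.38. Mrps31, a mitochondrial addition to the small subunit, had 180.2, 385 and 377 with LIF and 399.6, 589.8 and 436 without. Mrpl44, which has a fold like that of RNase III, had 284, 405 and 355 with LIF and 534, 481 and 451 without. Of its other probe sets, that with a mean signal of 386 gave 0.41 without overlap. Those with mean signals of 192 and 108 gave 0.24 and 0.06, and their groups overlapped. Mrps16 had 359.7, 465 and 591 with LIF and nearly equal signals of 628, 643 and 628 without. Mrps27, a protein of the pentatricopeptide family, had 169, 154 and 171 with LIF and 174, 251 and 186 without, so that the groups were only just apart. Mrpl28, a large subunit protein, was the remaining gene of the 8, with 459.8, 484 and 499.8 with LIF and 534, 769 and 644 without. Its other probe sets (mean signals 534 and 265) gave 0.38 and 0.06, and in both of them the groups overlapped.

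Mrps34, a mitochondrial addition to the small subunit, was among the 6 smallest p-values although its groups overlapped, with 334, 586 and 486 with LIF and 847, 467 and 818 without (0.58 ± 0.37; adjusted p = 0.973 by limma). Mrpl32 had tightly spaced signals with LIF of 391, 363 and 378 against 622, 694 and 389.6 without, so that only replicate 3 without LIF fell among the LIF arrays. At the other end, 5 genes had lower means without LIF, among them Mrpl14 at −0.23 ± 0.37, Mrps12 at −0.06 ± 0.44 and Mrps21 at −0.27 ± 1.13.

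**Figure D3:**
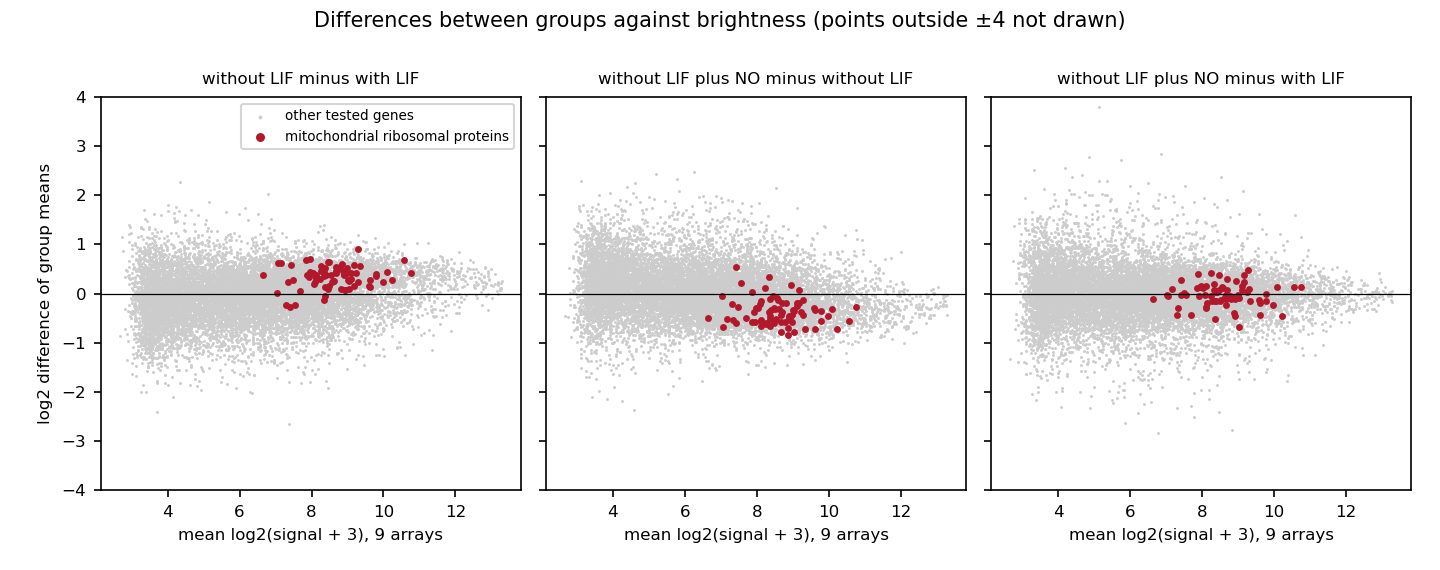
Log2 difference of group means (vertical axis) against mean log2(signal + 3) over the 9 arrays (horizontal axis) for each tested gene, in each of the 3 comparisons; red points are the 76 mitochondrial ribosomal genes and grey points the other tested genes. Most red points lie above 0 without LIF against with LIF, below 0 with the donor against without, and around 0 with the donor against LIF.

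The second comparison asked what the donor did in cells without LIF. The family had lower signals with the donor by a median of 0.38 on the log2 scale (differences from −0.84 to 0.55), and no gene passed the test. Lower means were seen in 69 of the 76 genes (90.8%), against 52.4% of all tested genes and 61.6% of the genes of similar brightness, whose median was −0.12. In limma, 0 of the 29811 probe sets were called (0%), and the smallest adjusted p in the family was 0.929. At an unadjusted p under 0.05 there were 1498 probe sets and 0 members, against 2.33% of the tested genes. The arrays without LIF are those of the first comparison, so the 2 comparisons are not independent. The difference reversed between passages. At passage 31 the median was −1.25 with 74 genes lower, at passage 33 −0.37 with 53 lower, and at passage 34 0.35 with 21 lower. Without replicate 1 with the donor the median was −0.10, without replicate 3 with the donor −0.69 and without the 2 most alike arrays −0.56. With the brighter arrays as a block the direction turned, to a median of 0.14 with 21 genes lower. That block holds no array without LIF, so it cannot be fully separated from the donor. The only donor array outside it is replicate 3, on which most of the family was high. The turn is therefore not read as a result about the donor.

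**Figure D4:**
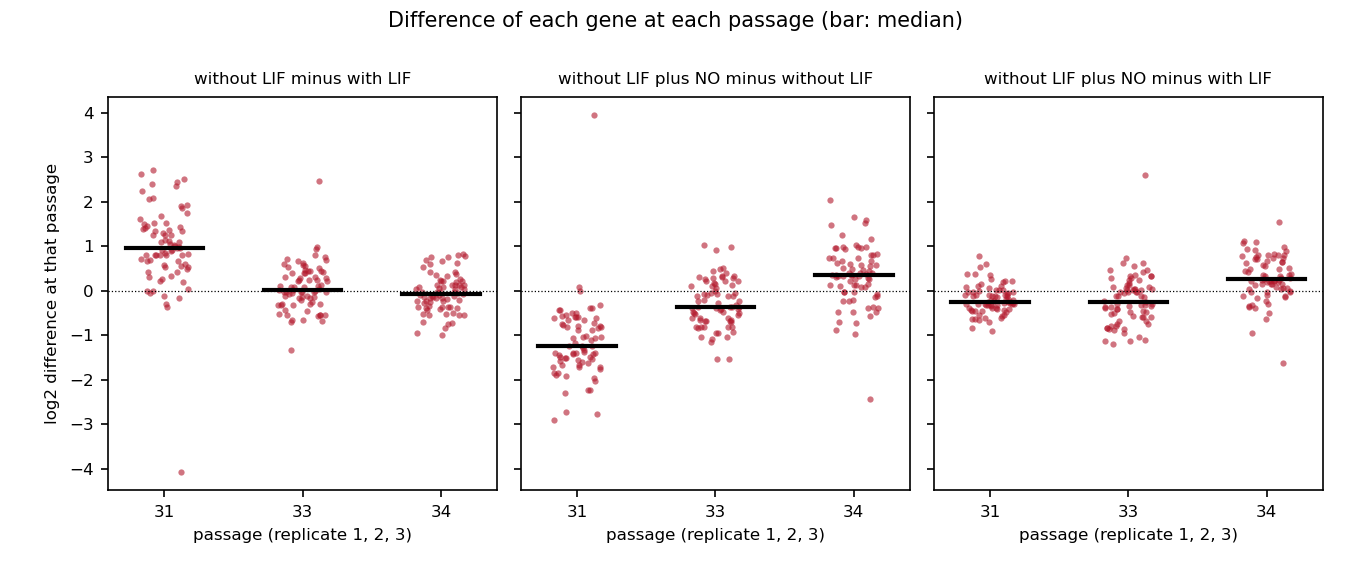
Log2 difference of each of the 76 genes between 2 arrays of the same passage (points, spread sideways to be seen) and their median (bar), for the 3 comparisons. Without LIF against with LIF the medians are 0.95, 0.03 and −0.07 at passages 31, 33 and 34, and with the donor against without they are −1.25, −0.37 and 0.35.

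Groups did not overlap in 3 genes, all lower with the donor (3.95%, against 2.88% of all tested genes in that direction): Mrpl4, Mrpl17 and Mrpl57. That share is near the background. Mrpl57, a small mitochondrial addition to the large subunit, had 459.5, 773 and 739 without LIF and 307, 374 and 449.9 with the donor, a difference of −0.78 ± 0.36 (adjusted p = 0.929 by limma). Mrpl17 had 1206, 1164 and 1177 without LIF and 769, 718 and 1149 with the donor; replicate 3 with the donor lay just under the lowest array without LIF. Mrpl4, a large subunit protein with a bacterial homolog, had 458, 721 and 525 without LIF and 311, 409 and 448 with the donor. Mrpl24, another bacterial-type large subunit protein, had the smallest p (−0.73 ± 0.33; adjusted p = 0.929 by limma), with 1000.4, 1818 and 1898 without LIF and 734, 1016 and 1020.3 with the donor. Its groups overlapped through replicate 1 without LIF. Mrpl32 had 622, 694 and 389.6 without LIF and 288, 238 and 475 with the donor (−0.78 ± 0.37; adjusted p = 0.929 by limma). Mrps16 gave −0.84 ± 0.44, with 189, 332 and 686 with the donor, and its replicate 3 with the donor was the highest of all 9. Mrps14, a bacterial-type small subunit protein, had 1073, 1139 and 792 without LIF and 403, 511 and 1041 with the donor (−0.72 ± 0.39). Its 2 dimmer probe sets (mean signals 119 and 49.8) gave 0.12 and 0.85. In Mrpl32, Mrps14 and Mrps16 alike, replicate 3 with the donor lay within or above the group without LIF.

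With the donor against LIF the family showed no common direction. The median difference was −0.03 (range −0.69 to 0.48), with 44 of the 76 genes lower (57.9%), against 50.9% of all tested genes and 50.8% of those of similar brightness. In limma, 0 of the 29811 probe sets were called (0%), and the smallest adjusted p in the family was 1. At an unadjusted p under 0.05 there were 578 probe sets and 0 members, against 1.75% of the tested genes. By passage the medians were −0.25, −0.24 and 0.26. Leaving out replicate 1 with the donor gave 0.29, leaving out replicate 3 with the donor −0.28, leaving out replicate 1 with LIF −0.27, leaving out either other LIF array 0.07, and the brightness block 0.25. The groups of Mrpl4 and Mrpl57 did not overlap, both lower with the donor (2.63%, against 3.57% of all tested genes in that direction). Mrpl57 had 476, 530.2 and 870.3 with LIF, a difference of −0.69 ± 0.36 (adjusted p = 1 by limma). Mrpl4 had 457, 544 and 588 with LIF, a difference of −0.45 ± 0.32. In both genes the donor arrays were thus the 3 lowest of the 9.

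The highest and lowest signals of single genes fell on few arrays. Replicate 1 without LIF and replicate 3 with the donor, the arrays most alike, were the 2 highest of the 9 in 39 of the 76 genes (51.3%), 28 of the large and 11 of the small subunit. The same held for 25.3% of the genes of similar brightness, 30.8% of the oxidative phosphorylation subunits and 9.52% of the cytosolic ribosomal proteins. Replicate 1 with LIF and replicate 1 with the donor were the 2 lowest in 46 genes (60.5%), against 27.8% of the genes of similar brightness. They were also the 2 lowest in 41% of the oxidative phosphorylation subunits and 35.7% of the cytosolic ribosomal proteins. These pairs of arrays were singled out after their values were seen. In 8 genes the lower of the high pair was at least 1.5 times the highest of the other 7 arrays. Mrpl13, a bacterial-type large subunit protein, had 1535 and 1831 on that pair and 279.8 to 632 on the other 7, a ratio of 2.43. Mrpl50, a mitochondrial addition to the large subunit, had 339.5 and 255 against 42.6 to 120.0, a ratio of 2.12. Mrps18c had 739 and 709.9 against 139 to 437, a ratio of 1.62. Mrpl33 had 409 and 258 against 56.8 to 150.3, a ratio of 1.72. The others were Mrpl47 at 2.07, Mrpl18 at 1.75, Mrpl43 at 1.59 and Mrpl20 at 1.5. A high signal on these arrays joins 1 array without LIF to 1 with the donor, so that it widens both groups.

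**Figure D5:**
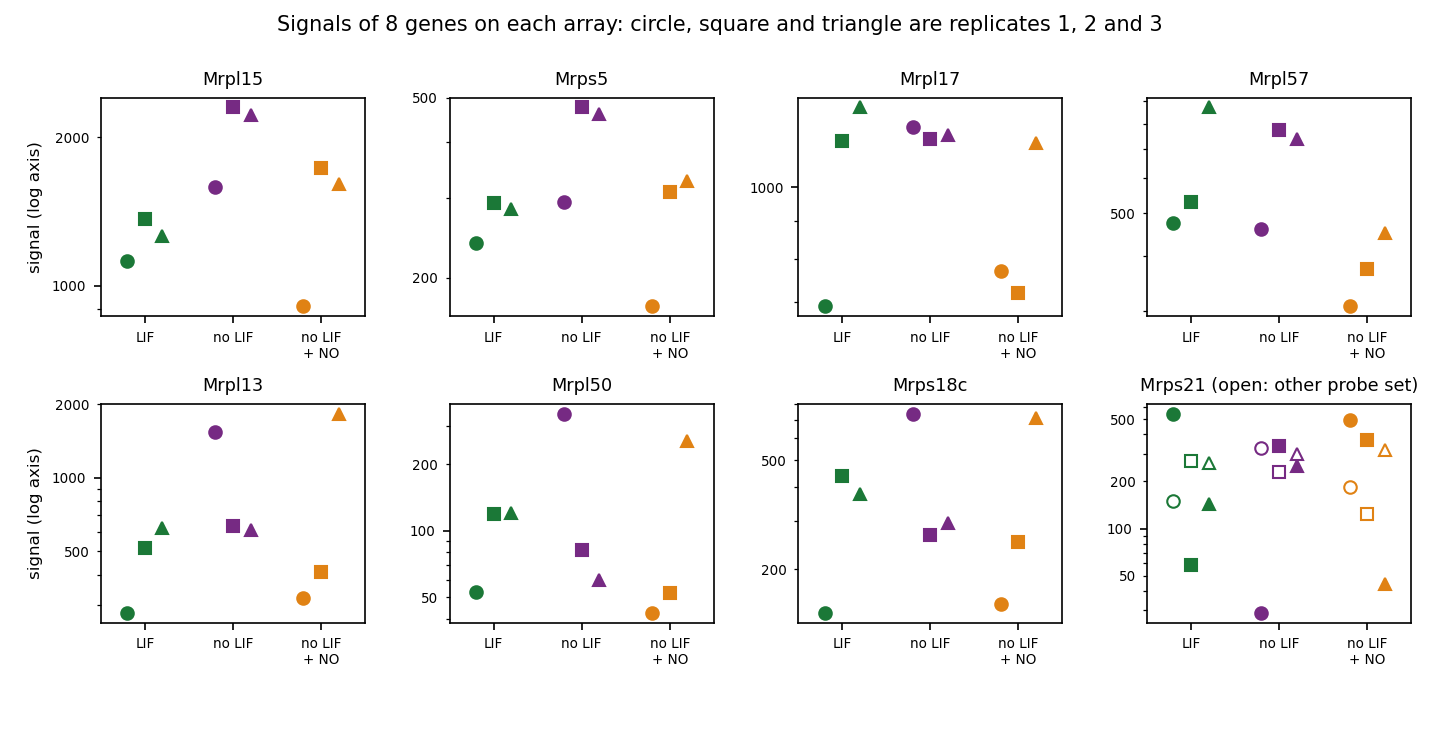
Signal (log axis) of 8 genes on each array, by regime; circles, squares and triangles are replicates 1, 2 and 3. Mrpl15, Mrps5, Mrpl17 and Mrpl57 are genes whose groups did not overlap in 1 or more comparisons. Mrpl13, Mrpl50 and Mrps18c are highest on replicate 1 without LIF and replicate 3 with the donor. For Mrps21 the filled points are the probe set that stands for the gene and the open points its other probe set, which runs the opposite way.

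The stalk proteins show the common pattern in genes of known role. Mrpl12, the stalk protein that contacts translation factors, had 578, 898 and 1026 with LIF, 1235, 799 and 1126 without LIF, and 458, 864 and 1316 with the donor. Mrpl11, at the base of the stalk, had 218, 604 and 521, then 937, 378 and 700.3, then 138, 453 and 883 in the same order, a span of 6.77-fold. The correlation with the mean of the other genes was 0.95 for Mrpl12 and 0.94 for Mrpl11. Mrps12, a protein of the decoding centre, had 265, 364 and 545 with LIF, 420.4, 331 and 335 without LIF and 148, 281 and 427 with the donor. In each of these 3 genes replicate 1 with the donor was the lowest array. Of the 3 relatives of bacterial S18, Mrps18b spanned 559 to 934 over the 9 arrays and Mrps18a 187 to 442, whereas Mrps18c spanned 139 to 739. Mrpl51 and Mrpl41, both mitochondrial additions to the large subunit, spanned 502 to 1917 and 71.7 to 483. Both were lowest on replicate 1 with LIF and highest on replicate 1 without LIF. The probe set of Mrpl39 was the brightest of the family, spanning 997 to 2609.

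Mrpl19 varied least, from 309 to 423 over the 9 arrays (SD 0.16 on the log2 scale), followed by Mrpl16 (387 to 618) and Mrps27 (138 to 251), both with an SD of 0.23. Among dim probe sets, Mrpl1 and Mrps11 followed the common order of arrays (r = 0.85 and 0.86). Mrpl14 ran from 91.6 to 238, Mrpl1 from 67.7 to 221 and Mrps11 from 62.8 to 202. Mrpl54 ran from 131 to 291. Mrps36, whose protein is not part of the ribosome, had a correlation of 0.80 with the other genes and signals of 217, 245 and 402 with LIF, 383, 334 and 275 without LIF and 180.1, 174 and 362 with the donor. The genes furthest from the rest apart from Mrps21 were Mrpl38 (r = −0.20), Mrpl2 (r = 0.05) and Mrps30 (r = 0.24), all of the large subunit. Mrpl38, a mitochondrial addition, had 406, 389 and 339.8 with LIF, 328, 512 and 537 without LIF and 349, 488 and 273 with the donor. Mrpl2, a protein with a bacterial homolog, had 761, 791 and 842, then 590.3, 1164 and 982, then 586, 963 and 591. Mrps30 had 619.9, 483 and 536, then 554, 958 and 714, then 423, 739 and 548. In all 3 genes replicate 1 without LIF was the lowest of its group, where most of the family was high. Mrpl2 and Mrpl38 were named after their values were seen.

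Mrps21 was the widest and ran against the rest (r = −0.82). Its signals were 541, 58.4 and 143 with LIF, 29.1, 337 and 252 without LIF and 492, 369 and 44.5 with the donor, an 18.6-fold span. It was high where the family was low and low where the family was high. The other Mrps21 probe set, of nearly equal mean signal (240.4 against 252), gave 151, 268 and 260.5, then 327, 229 and 300.5, then 185, 124 and 317, and so followed the family. The 2 probe sets correlated at −0.77, and the direction of Mrps21 is therefore unsettled. Such disagreement was found elsewhere: of the 80 other probe sets of the family 70 were bright enough to be tested, and of these 37 correlated above 0.5 with the one that stands for the gene and 19 below 0, in 15 genes. The 19 had a median mean signal of 49.8 against 176 in the 37, but the Mrps21 probe set with a mean signal of 240.4 is among them. In 17 of the 19 the median of the 3 brighter arrays was above that of the other 6. The 19 were picked for running against their representatives, most of which were low on 2 of the brighter arrays. That count therefore follows largely from the selection. Of the 70, 50 had the same sign as the representative without LIF against with LIF and 48 with the donor against without.

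Both subunits gave alike medians. Without LIF against with LIF the median was 0.37 in the 49 large subunit genes (46 higher) and 0.37 in the 26 small subunit genes (24 higher). With the donor against without it was −0.43 and −0.37. Genes with a bacterial homolog gave 0.35 and −0.43, and those without one 0.40 and −0.34. All 28 genes without a bacterial homolog had higher means without LIF, and 42 of the 47 with one did. By brightness, the dimmest, middle and brightest parts of the family gave 0.37, 0.38 and 0.29 without LIF against with LIF, where the other genes of the same brightness gave 0.04, 0.11 and 0.21.

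Other genes of mitochondrial translation were read from lists in the same way, and no gene of them passed the test in any comparison. Among 4 measured mitoribosome proteins under other names, the median was 0.23 without LIF against with LIF and −0.37 with the donor against without. Dap3, a GTP-binding small subunit protein, had 1103, 1244 and 1105 with LIF, 809, 2026 and 1675 without LIF and 807, 1235 and 867 with the donor. Chchd1 had 473, 880.3 and 927, then 1296, 754 and 922, then 553, 801 and 1406, and was highest on the same 2 arrays as Mrpl12. The 12 translation factors gave medians of 0.29 and −0.20. Tufm, the elongation factor that brings the transfer RNA, had means of 352 ± 70.4, 419 ± 15.7 and 344 ± 147 (SD, n = 3) in the 3 groups, and Mtif2, an initiation factor, 271 ± 69, 363 ± 197 and 349 ± 170.3. The 22 assembly and ribosomal RNA factors gave 0.09 and −0.01, and the 18 mitochondrial aminoacyl-tRNA synthetases 0.03 and −0.15, where all tested genes gave 0.01 and −0.03. Dhx30, a helicase of ribosome assembly, had group means of 688 ± 56.7, 804 ± 187 and 631 ± 188 (SD, n = 3) and Fastkd2, an RNA-binding protein, 457 ± 82.6, 452 ± 80.2 and 647 ± 88.1. Gars and Kars, synthetases that serve the cytosol as well, had 1886 ± 419, 2303 ± 671 and 2027 ± 367 and 1434 ± 462, 2148 ± 399 and 1466 ± 368. The 14 genes of mitochondrial transcription and DNA maintenance gave 0.20 and −0.16. In that list Ssbp1, which binds single-stranded mitochondrial DNA, had 472, 1317 and 1573 with LIF, 3135, 1067 and 1158 without LIF and 659.7, 1258 and 3362 with the donor, and was highest on the same 2 arrays as Mrpl13. Polrmt, the mitochondrial RNA polymerase, was lowest on those 2 arrays, at 262 and 229.8.

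The 78 nuclear oxidative phosphorylation subunits gave medians of 0.32 and −0.60. Without LIF against with LIF, 69 were higher (88.5%). With the donor against without, 75 were lower (96.2%, against 52.4% of all tested genes). Of these 7 were at an unadjusted p under 0.05, against 113 of the 13358 tested genes in that direction. Cox6a1, of cytochrome c oxidase, had group means of 6704 ± 1258, 6370.2 ± 1523 and 5755 ± 1091 (SD, n = 3) and Atp5b, of ATP synthase, 6142 ± 1326, 6744 ± 1141 and 5058 ± 524. The 42 cytosolic ribosomal proteins gave 0.30 and −0.31, and 38 of them were higher without LIF than with LIF (90.5%). Their brightest, Rps29 and Rps10, had 9925 ± 1524, 11864 ± 1321 and 8762 ± 1432, and 9981 ± 1419, 10868 ± 1686 and 9079.8 ± 377. Both sets therefore had medians of the same signs as the mitochondrial ribosomal genes, and no difference between the sets was tested. With the donor against LIF the oxidative phosphorylation subunits had a median of −0.21 with 64 of 78 lower, where the mitochondrial ribosomal genes had −0.03 with 44 of 76 lower.

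Of 10 regulators of mitochondrial biogenesis, 9 were tested and their medians were −0.14 and 0.01. Nrf1, which encodes nuclear respiratory factor 1, had 354, 208 and 240.3 with LIF, 196, 223 and 241 without LIF and 492, 434 and 283 with the donor. The donor arrays lay above all arrays without LIF, as in 3.78% of all tested genes. The difference was 0.83 ± 0.36, with a p under 0.05 before adjustment and not after it (adjusted p = 0.929 by limma). The 3 brighter arrays, none of them without LIF, were the highest for Nrf1 (354, 492 and 434), as in 6.48% of all tested genes. Whether that has a part in the difference was not tested. Gabpb1, a partner of GABPA, had 45.9, 143 and 117, then 165, 139 and 99.7, then 55.3, 83.1 and 184. Gabpa had group means of 513 ± 54.5, 490.2 ± 196 and 453 ± 128 (SD, n = 3), and Yy1 1089 ± 205, 1299 ± 9.46 and 1224 ± 273. Esrra, an orphan receptor that binds mitochondrial gene promoters, had 61.9 ± 14.7, 68.5 ± 30.4 and 67.6 ± 22.4. Of the coactivators, Ppargc1b had 151 ± 90.5, 114 ± 47.6 and 191 ± 82.8 and Pprc1 714 ± 141, 858 ± 272 and 969 ± 298, while Ppargc1a was too dim to be tested (mean signal 5.44). Myc had 143 ± 89.3, 134 ± 137 and 157 ± 84.4, and Crebzf 210.2 ± 62.4, 175 ± 16 and 157 ± 34.5. Their groups overlapped in the comparison of donor and no donor.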

How the data were processed

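RNA of 9 cultures was hybridized to Affymetrix Mouse Genome 430 2.0 arrays, 1 array a culture, so that array number limits the precision. The deposited values are linear signal intensities made with GeneChip Operating System 1.4.0.036 (MAS5, global scaling), per the labels. From them log2(signal + 3) was computed and fitted in R 4.3.3 with limma 3.58.1 (group means over all 9 arrays, variances moderated by lmFit and eBayes along an intensity trend, two-sided). Of 45101 probe sets, the 29811 at or above their array's 40th percentile on at least 3 arrays were tested, without the 64 control probe sets, and the Benjamini-Hochberg adjustment ran over these. Fold changes of dim probe sets are understated by the added 3. Gene names are those of GEO's platform table (34945 probe sets with 1 symbol, 932 with several); 4 with a family symbol and another gene were not used. All 76 symbols matched RefSeq (GRCm38.p6), which also gave the promoters.

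Named were the 6 genes with the smallest p in each comparison, the 5 brightest and 5 dimmest, the 5 most and 3 least variable, those whose groups did not overlap and that agreed in sign at all passages, 9 fixed genes, the 2 brightest of each list and every regulator. Other names were added after values were seen. The genes and lists were chosen with earlier results of these data known. No list of mitochondrially encoded genes could be read, since 0 probe sets carried such a symbol. The test was also run on simulated arrays with known changes and errors independent between probe sets. The common movement of genes seen here is absent from such arrays, so that run does not say what the test would find in these data. Alternatives were other added constants, filters, scalings, blocks, probe set choices and left-out arrays.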

Additional observations from a re-analysis of the deposited data

How the results depend on the processing

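Over the main fit and 23 alternatives limma called 0 probe sets and 0 members at an adjusted p under 0.05 in each comparison. The median of the family without LIF against with LIF was positive in all 23 (0.09 to 0.59; 0.11 to 0.50 when single arrays were left out). With the donor against without it was negative in 22, from −0.61 (−0.69 to −0.10 when single arrays were left out), and 0.14 with the brighter arrays, none of them without LIF, as a block. With the donor against LIF it was negative in 17, positive in 5 and 0.00 as the mean of all probe sets, from −0.28 to 0.25 (−0.28 to 0.29 when single arrays were left out). Median centring moved the median of all probe sets from −0.10 to 0.12 and from 0.08 to −0.15 in the first 2 comparisons, and that of the family to 0.59 and −0.61. The family's median minus that of the genes of similar brightness, which centring cannot change, was 0.27 and −0.27, and under quantile normalization 0.23 and −0.25. Of 18 single-gene differences under these alternatives, 409 values in all, 3 turned: Mrpl15 gave −0.46 and 0.51 with plain probe sets only, and Mrps14 0.08 as the mean of its probe sets. Those turns come from other probe sets of the same gene. Not every alternative could change a gene's difference of means. Other filters, the fit without an intensity trend, the fit of only the groups compared and the replicate block left it as in the main fit. So did leaving out an array of a group not compared. The counts of alternatives and of values above include these repeats, which are not separate agreement.

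Samples of 1 number share a passage. Their deviations from the group means correlated from −0.60 to 0.65, not above 0.1 in every pair, and 3 of 9 arrays were most alike to 1 of their own number. Each group has 1 array of each number, so a replicate block cannot change a difference of group means. The family's medians of 0.37, −0.38 and −0.03 were thus fixed in advance, and only the p-values could move. With that block there were 0 calls, and members at an unadjusted p under 0.05 numbered 1 and 2 in the first 2 comparisons. Members at such a p numbered at most 1 in the first comparison, up to 14 in the second and at most 3 in the third. The 14 came without replicate 3 with the donor, an array on which most of the family was high. Neither these counts nor those of the replicate block have the share of all tested genes in the same setting beside them. Such counts are therefore not read as a result about the family.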
